A study of Mus musculus with 8 samples.

Results

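Cadherins and protocadherins were followed in photoreceptor cells of mice that lack Lpcat1, an enzyme that builds saturated phosphatidylcholine, and of heterozygous (HZ) controls. Members were the genes whose symbol starts with Cdh and a number, apart from Cdh3, or with Pcdh. By this rule 69 of 22911 genes with a symbol on the array were members, measured by 102 probes, and each gene is given by its brightest probe. The study hybridized total RNA of photoreceptor cells of mice at postnatal day 8 to a single-color Agilent mouse array, with 4 arrays labelled Lpcat1 HZ and 4 labelled Lpcat1 KO. The cells had been taken from dissociated retina with magnetic beads against CD73, a surface marker of photoreceptor cells, and the KO allele is present in every cell of the animal. Both groups carry at least 1 KO allele, since HZ mice served as the controls, and wildtype mice were not part of the comparison. The strain label is C57BL/6. By the methods, the KO line was of the C57BL6/N substrain and was bred to C57BL6/J against the rd8 mutation of Crb1, and animals homozygous for rd8 were not used, so that substrains were mixed. The labels do not say whether the arrays of a group came from separate animals, so p-values measure only the spread between these arrays.

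Cadherins are membrane proteins that bind the same or a related cadherin on the neighboring cell in the presence of calcium. Type I and type II cadherins hold on to the actin cytoskeleton through catenins. In the retina N-cadherin (Cdh2) joins photoreceptor cells and Müller glia at the outer limiting membrane, and Cdh23 and Pcdh15, the proteins of the tip link of hair cells, are affected in Usher syndrome. Protocadherins bind more weakly. Those of the alpha, beta and gamma clusters are chosen cell by cell from rows of similar promoters and let a neuron tell its own branches from those of others, whereas delta protocadherins, encoded by single genes, guide axons and steer actin remodeling.

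Values are log2 signal intensities minus the 75th percentile of the same array, so that 0 is that percentile, and each difference is KO minus HZ. The 8 arrays lay on the same slide, with KO in slide row 1 and HZ in slide row 2, so that genotype and slide row cannot be told apart. On each array 47 to 51 of the 69 members were marked as well above background, and 0 of their spots were saturated or marked as outliers. Rod and cone markers were well above background on all 8 arrays for 14 of 14 and 10 of 10 genes. So were 11 of 11 Müller glia, 8 of 8 bipolar cell and 6 of 6 progenitor markers. The same held for 14 of 20 RPE, 10 of 12 microglia, 7 of 16 inner neuron, 5 of 9 endothelium and 3 of 11 connective tissue markers. Among all genes with a symbol it held for 13417 of 22911. Signal on these arrays may come in part from cells other than photoreceptor cells, which was not tested. The single probe for Lpcat1 did not separate the groups (difference -0.037, standard error 0.11, limma adjusted p = 0.931), so that it gives no check of the labels. The retinal pigment epithelium (RPE) markers were lower in KO for 17 of 17 tested genes, with a summed level of 16.5 to 45.0 on the HZ arrays and 8.39 to 15.7 on the KO arrays, and Lrat, Oca2 and Slc45a2 were not tested because they were above background on too few arrays. Microglia markers were higher in KO for 12 of 12 tested genes, with a summed level of 4.15 to 7.95 on the HZ arrays and 5.91 to 10.0 on the KO arrays. In sorted cells, fewer cells of a type and less RNA per cell cannot be told apart.

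Every subfamily had members with signal on these arrays, and the share of members with signal differed. Of the 69 members, 48 (69.6%) reached the level marked well above background on 4 or more arrays and were tested, against 64.8% of all genes with a symbol. Another 9 were above background on 1 to 3 arrays and 12 on 0 arrays. Clustered protocadherins were tested for 28 of 35 genes, with 19 of 22 beta, 4 of 7 alpha and 5 of 6 gamma members. These counts cover only genes with a probe matched to a symbol, so that they, and the values given for a cluster, need not describe the whole cluster. Delta protocadherins were tested for 8 of 10 genes. Type II cadherins were tested for 5 of 13 genes and type I cadherins for 2 of 4.

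The members that were not tested included the main cadherins of other tissues. Cdh1 (E-cadherin of epithelia) was above background on 0 HZ arrays and 1 KO array. Cdh5 (VE-cadherin of blood vessels) and Pcdh12, a protocadherin of endothelium, were above background on 0 arrays, as were Cdh15 (M-cadherin of muscle) and Cdh17 (an intestinal cadherin). Other markers of endothelium were above background, since 6 of 9 were tested, while Tek, Tie1 and Emcn were above background on 0 arrays. Among the type II cadherins Cdh7, Cdh9 and Cdh10, which mark subsets of neurons, were above background on 0 arrays as well. The delta protocadherins Pcdh7 and Pcdh20 were above background on 2 and 1 HZ arrays and on 0 KO arrays. Cdh12, Cdh18, Cdh19, Cdh24, Pcdha4 and Pcdhb1 were above background on 1 to 3 arrays, and Pcdha11, Pcdhac1, Pcdhb2, Pcdhb5 and Pcdhgc5 on 0. A gene that was not above background has only a bound, so that a difference in it was not detectable here.

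**Figure D1:**
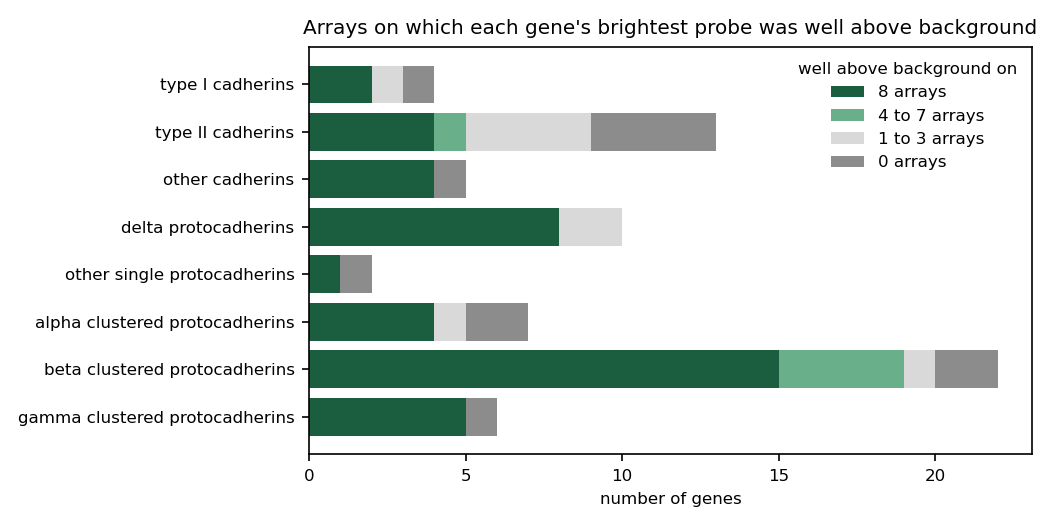
Number of members (x axis) by subfamily (y axis), colored by the number of arrays on which the brightest probe was well above background. Beta, gamma and delta protocadherins were mostly above background on all 8 arrays, and 8 of 13 type II cadherins on fewer than 4.

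Differences between the genotypes were small for most members. Of the 48 tested, 28 were lower in KO (58.3%, against a background of 49.5%) and 20 higher, with a median of -0.021 against 0.0023 over all 34303 tested probes. Over the 14844 tested genes with a symbol, also taken by their brightest probe, 43.2% were lower, with a median of 0.029. With quantile normalization in place of the percentile shift the split was 21 lower and 27 higher. In 38 of the 48 (79.2%) the difference was within a fold of 1.2, against 77.2% of all probes. The 95% confidence interval lay wholly within a fold of 1.5 in either direction for 25 of the 48 (52.1%), against 61.6% of all probes and 68.1% of genes with a symbol, and reached beyond it for the others. The methods of the study name folds of 1.2 or 1.5 and q-values of 0.05 or 0.5, without a tool for the q-value. The looser thresholds used here were a fold above 1.5 with a limma adjusted p below 0.5. Past these, 1 member (Pcdh18) was lower and 0 were higher, against a background of 0.813% of all tested probes lower, 0.227% higher and 1.04% in either direction. Past the stricter ones, a fold above 1.2 with a limma adjusted p below 0.05, there were 0 members and 0 probes in all. An unadjusted p below 0.05 was reached by 3 members, 1 lower (Pcdh18) and 2 higher (Cdh13 and Pcdhb18), against a background of 3.48% lower, 4.69% higher and 8.17% in either direction.

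By subfamily the median difference was -0.11 for the type I cadherins, of which only Cdh2 and Cdh4 were tested. It was 0.099 for the type II cadherins and 0.0070 for the other cadherins. It was -0.14 for the delta protocadherins, of which Pcdh18 was the 1 past the looser thresholds. Of the 8 delta protocadherins tested, 7 were lower (87.5%), against 49.5% of all tested probes and 43.2% of tested genes with a symbol. Some of these 7 changed direction with the setting. Without HZ replicate 2 the difference was 0.078 for Pcdh17 and 0.0036 for Pcdh10, and with quantile normalization it was 0.064 for Pcdh1. The alpha, beta and gamma clusters had medians of -0.065, -0.010 and -0.017, and 0 of their 28 tested genes passed the looser thresholds. The medians of the type I cadherins and the delta protocadherins were below 0 in all 18 other settings, but without HZ replicate 2 that of the delta protocadherins was -0.0015. Those of the type II cadherins, the other cadherins and the 3 clusters turned in some.

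**Figure D2:**
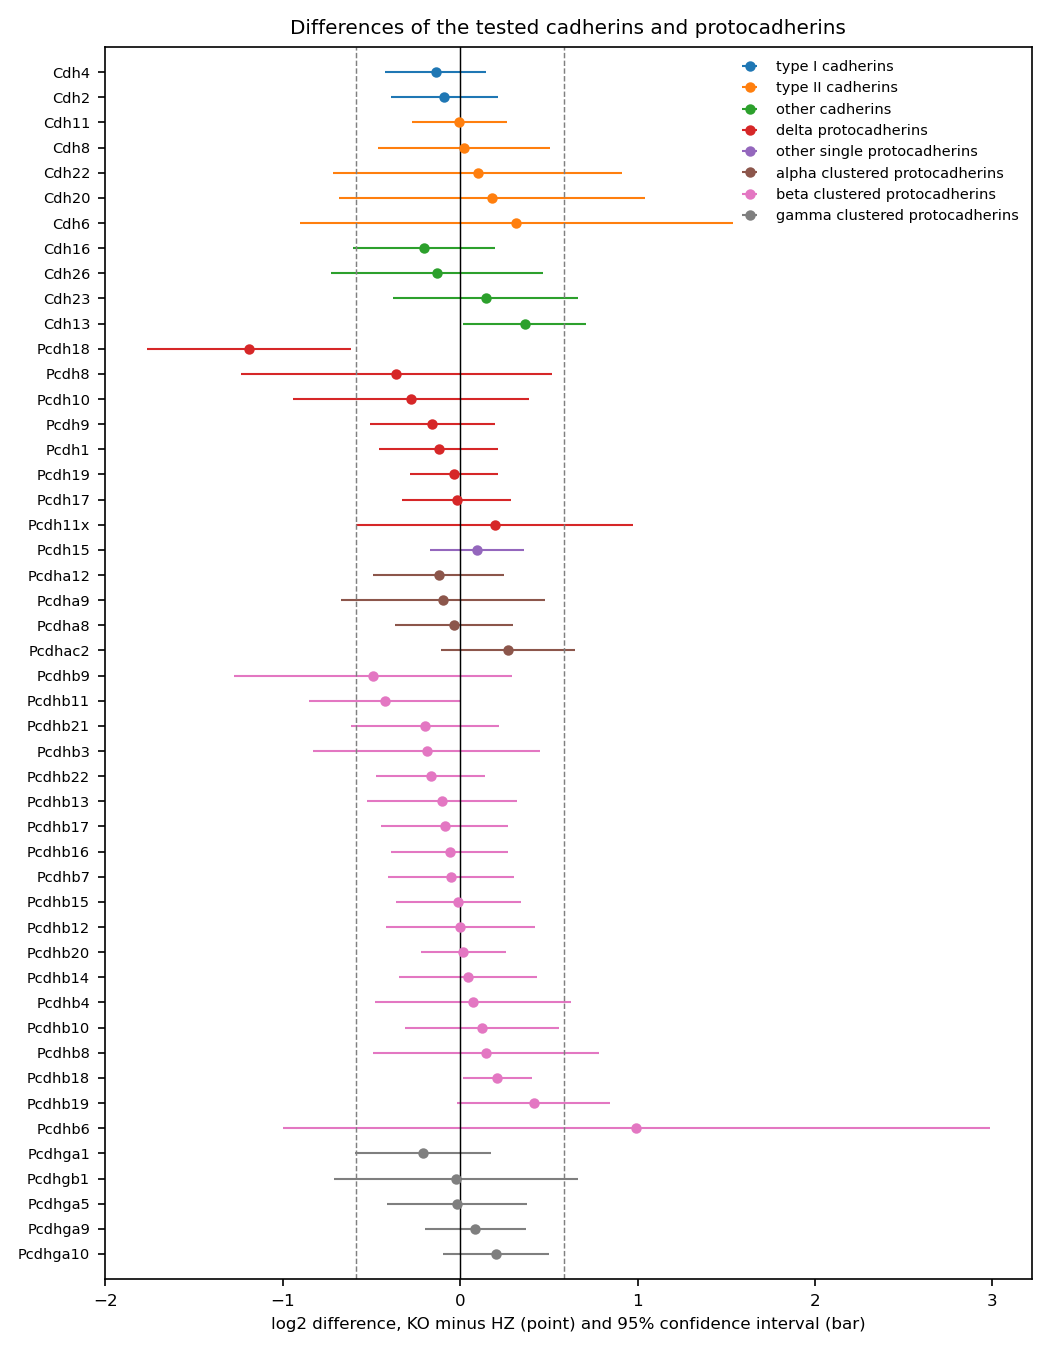
Log2 difference, KO minus HZ (x axis), of the 48 tested members (y axis, grouped by subfamily), as points with bars for the 95% confidence interval and dashed lines at a fold of 1.5. Pcdh18 is the only interval wholly beyond a dashed line, and the widest belongs to Pcdhb6.

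Pcdh18, a delta protocadherin of the kind that binds the actin regulator WAVE, had the largest difference. Its log2 signal was -3.99, -3.34, -3.34 and -4.11 on the HZ arrays and -4.72, -4.59, -4.79 and -5.44 on the KO arrays. The groups did not overlap, which held for 2.14% of all tested probes in this direction. It follows from this that within each replicate number the KO array was the lower one, in 4 of 4 pairs. The difference was -1.19 (standard error 0.25, limma adjusted p = 0.362). Its probe was dim, with a background-corrected intensity of 51.0 to 101 units on the HZ arrays and 21.4 to 41.4 on the KO arrays, although it was marked well above background on all 8. With normexp background correction the difference was -0.41, under a fold of 1.5. That setting adds an offset of 50 units, which by itself shrinks the differences of dim probes.

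The RPE markers moved with Pcdh18 between the groups, both being lower in KO, and KO replicate 4 was the lowest array for both. Within HZ the order differed, since replicate 2 had the lowest summed level of RPE markers (16.5) and, together with replicate 3, the highest Pcdh18, and replicate 1 had the highest RPE level (45.0) and the third highest Pcdh18. The part of RPE cells in the difference of Pcdh18 was not tested. The looser thresholds were no longer passed without HZ replicate 1 (adjusted p = 0.625), HZ replicate 3 (0.754), KO replicate 2 (0.596), KO replicate 3 (0.647) or KO replicate 4 (0.620) with limma, and the difference stayed between -1.33 and -1.01 in the leave-one-out fits. With the replicate number as a block the adjusted p was 0.308 by limma.

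**Figure D3:**
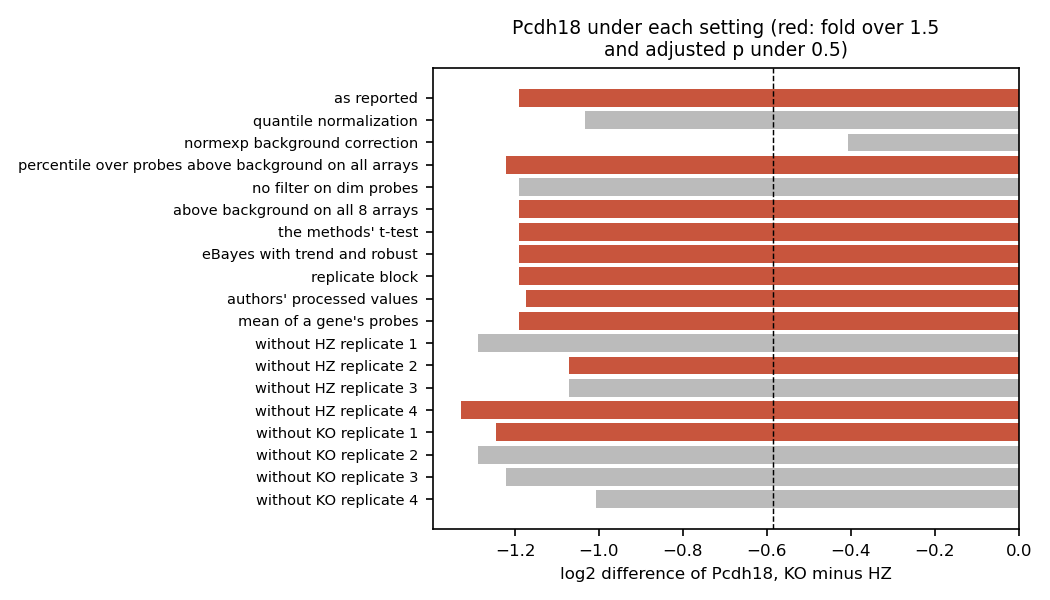
Log2 difference of Pcdh18, KO minus HZ (x axis), as reported and under 18 other settings (y axis), with a dashed line at a fold of 1.5 and bars in red where both looser thresholds were passed. All 19 bars point the same way, from -1.33 to -0.41, and 8 of the 18 settings do not pass the thresholds.

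The promoter of Pcdh18 is shown for context as the member with the largest difference, and those of Pcdh8 and Pcdh10 as members that varied together between arrays, described further on. The clustered protocadherins, Cdh2, Pcdh1 and Pcdh12 were left out of the promoter search. Among the other members, RefSeq promoter windows of the GRCm38.p6 build were found for 22. For each gene the 250 bases before the start of transcription are printed in the direction of the gene, with motif matches in capitals.
Pcdh18: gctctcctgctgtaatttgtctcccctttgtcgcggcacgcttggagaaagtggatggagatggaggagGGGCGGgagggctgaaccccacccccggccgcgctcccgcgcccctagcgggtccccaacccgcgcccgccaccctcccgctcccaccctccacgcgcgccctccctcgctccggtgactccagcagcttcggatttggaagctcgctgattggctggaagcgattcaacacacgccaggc
Pcdh10: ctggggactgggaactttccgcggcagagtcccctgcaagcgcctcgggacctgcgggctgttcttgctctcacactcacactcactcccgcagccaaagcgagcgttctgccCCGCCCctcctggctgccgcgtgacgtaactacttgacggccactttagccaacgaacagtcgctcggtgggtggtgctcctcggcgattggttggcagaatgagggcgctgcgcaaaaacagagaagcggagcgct
Pcdh8: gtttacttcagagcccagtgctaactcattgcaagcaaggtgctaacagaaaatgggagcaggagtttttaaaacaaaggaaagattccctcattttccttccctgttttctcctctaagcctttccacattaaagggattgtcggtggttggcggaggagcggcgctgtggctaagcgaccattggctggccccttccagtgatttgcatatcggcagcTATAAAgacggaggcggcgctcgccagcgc
These windows lie at chr3:49757317-49757566 on the minus strand (Pcdh18), chr3:45378148-45378397 on the plus strand (Pcdh10) and chr14:79771313-79771562 on the minus strand (Pcdh8). Each of 5 motifs was searched on both strands, and its share is given over 32851 promoter windows of the same length. The E-box CAGGTG occurred in 17.2% of these. TAATCC, bound by photoreceptor homeobox proteins, occurred in 6.25%. The M-box CATGTG occurred in 12.3%. The GC box GGGCGG occurred in 32.7%. The TATA box TATAAA occurred in 12.4%. Pcdh18 and Pcdh10 each had 1 GC box, printed as CCGCCC for Pcdh10, in which the motif is on the other strand. Pcdh8 had 1 TATA box. Of the 22 members, all of them unclustered, 9 had a GC box. The windows of Pcdh18 and Pcdh10 were rich in G and C, at 68% and 63.2% against a median of 52.4% over all windows, with 23 and 22 CpG sites against a median of 6, whereas Pcdh8 had 51.2% and 11 sites.

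Among the other unclustered members, T-cadherin (Cdh13), which is attached to the membrane by a lipid anchor and lacks a cytoplasmic tail, was the only one higher in KO at an unadjusted p below 0.05. Its log2 signal was -0.61, -0.14, -0.25 and -0.72 on the HZ arrays and -0.15, 0.14, -0.090 and -0.17 on the KO arrays. The KO array was higher in 4 of 4 pairs, although HZ replicate 2 lay above KO replicates 1 and 4. The difference was 0.36 (standard error 0.15, unadjusted p = 0.041 and adjusted p = 0.596 by limma), and a second probe gave 0.26.

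N-cadherin (Cdh2) did not separate the groups, with a log2 signal of 3.32, 3.65, 3.37 and 3.10 on the HZ arrays and 3.15, 3.44, 3.32 and 3.17 on the KO arrays. Its difference was -0.089, with a 95% confidence interval of -0.39 to 0.21. R-cadherin (Cdh4), named for the retina, had 0.73, 0.69, 0.63 and 0.91 on the HZ arrays and 0.61, 0.34, 0.61 and 0.85 on the KO arrays. It was lower in 4 of 4 pairs, with a difference of -0.14 (interval -0.42 to 0.15), within the spread of the arrays, while another of its 3 probes gave 0.021. Among the type II cadherins, Cdh11 differed by -0.0034 (interval -0.27 to 0.26) and Cdh8, which guides a subset of bipolar cells, by 0.023, with -0.51 from its second tested probe. Cdh6, present in subsets of retinal ganglion cells, differed by 0.32 with a standard error of 0.53 and was above background on 7 of 8 arrays. The kidney cadherin Cdh16 differed by -0.20 and Cdh26 by -0.13, while Cdh20 and Cdh22 differed by 0.18 and 0.099, with standard errors of 0.17 to 0.38. The second probe of Cdh22 gave -0.55.

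The Usher syndrome cadherins were compared in the same way. Cdh23 differed by 0.14 (standard error 0.23) and Pcdh15 by 0.097 (standard error 0.12). Pcdh15 had 6 probes, all tested, with differences of -0.045 to 0.17. Their log2 signals overlapped between the groups, from -4.74 to -3.80 in HZ and from -4.52 to -3.97 in KO for Cdh23, and from 3.40 to 3.83 and 3.58 to 3.88 for Pcdh15.

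The other delta protocadherins had smaller differences than Pcdh18, and whether they differed less was not tested. Pcdh1 differed by -0.12, Pcdh9 by -0.16, Pcdh17 by -0.020 and Pcdh19, which is mutated in a form of epilepsy, by -0.035. The ranges of HZ and KO overlapped for all 4, and the standard errors were 0.11 to 0.15. Pcdh8, a protocadherin induced by neuronal activity, differed by -0.36 (standard error 0.38) and Pcdh10 by -0.28 (standard error 0.29). Without HZ replicate 2 these were -0.0044 and 0.0036. The 3 probes of Pcdh10 and the 2 of Pcdh8 all gave lower values in KO. Pcdh11x was the only tested delta protocadherin with a higher mean in KO, with a difference of 0.20 (standard error 0.34).

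In the clusters, Pcdhb18 was the member with the smallest p. Its log2 signal was -0.074, 0.050, 0.13 and 0.020 on the HZ arrays and 0.21, 0.28, 0.14 and 0.33 on the KO arrays. The groups did not overlap, as for 4.19% of all tested probes in this direction, but the highest HZ array and the lowest KO array were close together. The difference was 0.21 (standard error 0.084, unadjusted p = 0.036 and adjusted p = 0.586 by limma), a fold under 1.2.

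Pcdhb19 and Pcdhb11 differed in opposite directions, and neither passed a threshold. Pcdhb19 had -3.98, -4.49, -4.62 and -4.86 on the HZ arrays and -4.12, -3.97, -3.91 and -4.27 on the KO arrays, a difference of 0.42 (standard error 0.19). Pcdhb11 had -5.56, -5.06, -5.09 and -4.97 on the HZ arrays and -5.24, -5.63, -5.53 and -5.98 on the KO arrays, a difference of -0.42 (standard error 0.19). In each gene replicate 1 of HZ lay inside the KO range, and Pcdhb11 was above background on 2 HZ and 2 KO arrays only. Pcdhb9 was lower in 4 of 4 pairs, with a difference of -0.49 (standard error 0.34) and log2 signals from -4.75 to -3.68 in HZ and from -5.27 to -3.89 in KO. All 3 genes were dim. With normexp background correction and the same offset, which shrinks the differences of dim probes, they were 0.078 for Pcdhb19, -0.023 for Pcdhb11 and -0.076 for Pcdhb9.

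Pcdhb6 had the largest positive difference, and it came from a single array. Its log2 signal was -1.02, -0.95, -1.06 and -5.03 on the HZ arrays and between -1.08 and -0.96 on the 4 KO arrays. HZ replicate 4 was far below the other arrays. The difference of 0.99 had a standard error of 0.87, and without HZ replicate 4 it was -0.012. The spot on that array read 27.1 intensity units, against 440 to 532 on the other arrays, was not marked as an outlier and was not above background.

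Pcdhac2, of the alpha cluster, differed by 0.27 (standard error 0.16) by its brightest probe and by -0.21 by its second. Pcdhga1, of the gamma cluster, differed by -0.21 (standard error 0.17). Probes of the same gene disagreed in direction for Cdh4, Cdh8, Cdh22, Pcdh15, Pcdhac2 and Pcdhga9. The other 14 tested beta genes differed by -0.20 (Pcdhb21) to 0.14 (Pcdhb8). Pcdha8, Pcdha9 and Pcdha12 differed by -0.033, -0.096 and -0.12, and the other 4 gamma genes by -0.023 (Pcdhgb1) to 0.20 (Pcdhga10). The intervals of these genes all included 0. The beta genes are near-identical in places and the alpha and gamma genes share constant exons. Probe sequences were not used here, so that signal shared between such genes was not tested.

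**Figure D4:**
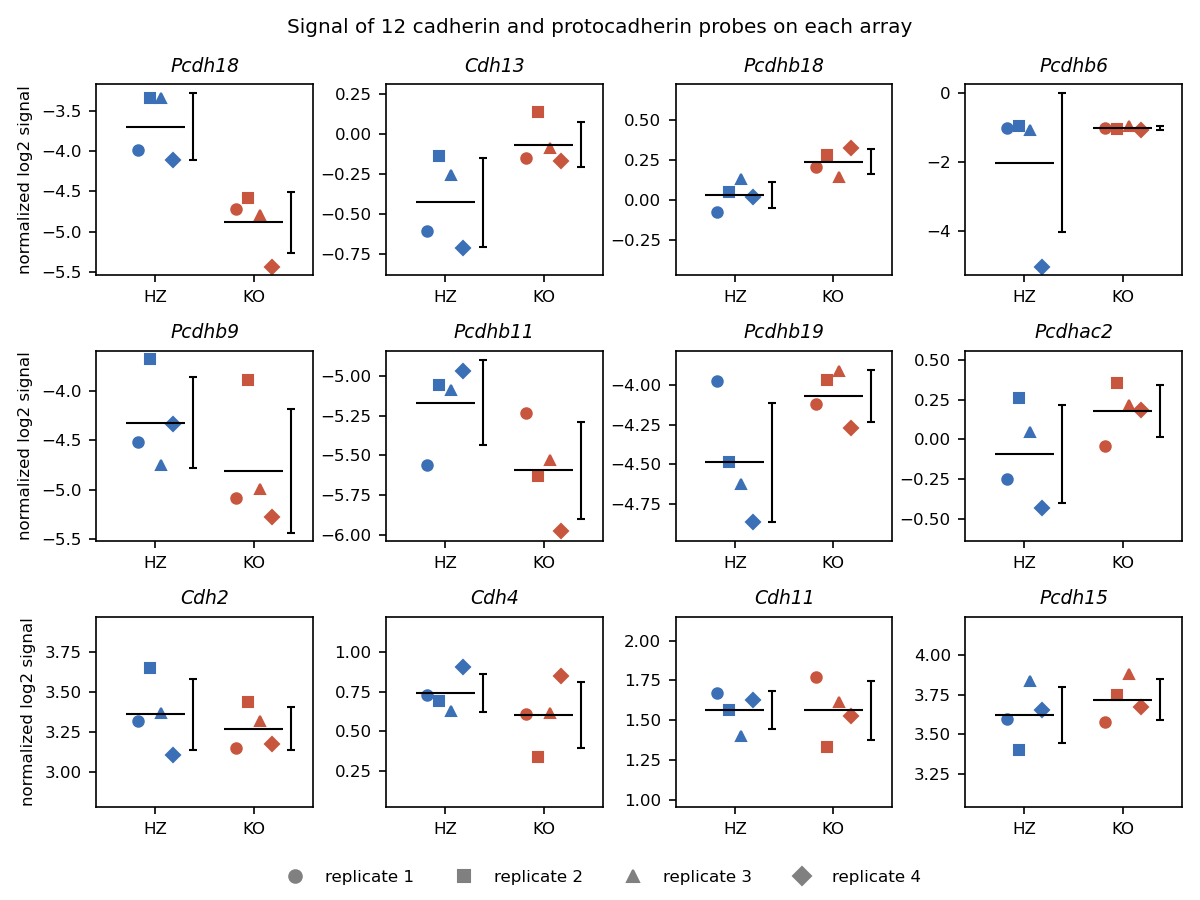
Log2 signal (y axis, a separate scale for each gene) of 12 members on the 4 HZ (blue) and 4 KO (red) arrays, with a marker shape for each replicate number, a line at the mean and a bar of 1 SD beside it. Pcdh18 and Pcdhb18 are the genes without overlap, and HZ replicate 4 lies apart for Pcdhb6.

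The members also varied with the replicate number, a pattern seen only after the values were known. The replicate 2 array was the highest of its group in both HZ and KO for 18 of the 48 tested members (37.5%), against 15.5% of all tested probes. The replicate 4 array was the lowest in both groups for 14 members (29.2%), against 8.28%. The 18 included 8 of 19 beta and 4 of 8 delta protocadherins, and 2 of 5 type II cadherins. Arrays with the same replicate number correlated in their deviations from the group means over all tested probes, with r of 0.172 to 0.337. Between HZ and KO arrays of different numbers r was -0.337 to 0.117.

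In 6 members replicate 2 stood above the next array of its group by more than 0.3 in both groups. They were the delta protocadherins Pcdh8, Pcdh10 and Pcdh11x, the type II cadherins Cdh20 and Cdh22, and Pcdhb9. Pcdh8 had -2.37, -1.09, -2.45 and -2.70 on the HZ arrays and -2.42, -1.96, -2.52 and -3.15 on the KO arrays. Replicate 2 was thus 1.28 above the next HZ array and 0.46 above the next KO array. Pcdh10 had -1.87, -0.77, -1.85 and -1.96 on the HZ arrays and -1.99, -1.46, -1.85 and -2.27 on the KO arrays, with gaps of 1.07 and 0.39. Cdh20 had -2.48, -0.99, -1.87 and -2.63 on the HZ arrays and -2.10, -1.18, -1.91 and -2.08 on the KO arrays, with gaps of 0.88 and 0.73. The gaps were 0.68 and 0.79 for Cdh22, 0.45 and 1.16 for Pcdh11x, and 0.65 and 1.11 for Pcdhb9.

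Markers of some other retinal cells, but not of all, were highest on the same arrays. The 6 progenitor markers deviated on average by 0.98 on HZ replicate 2 and 0.56 on KO replicate 2, the highest of each group. Müller glia markers, 11 of 11 tested, deviated by 0.48 and 0.36 and bipolar cell markers, 8 of 8 tested, by 0.63 and 0.10, again the highest of each group. By the same score, the tested markers of inner retinal neurons (7 of 16) and of endothelium (6 of 9) were also highest on replicate 2 in both groups. For the inner neurons HZ replicate 2 (0.28) was close to HZ replicate 3 (0.26). Their summed level was lowest of the HZ arrays on HZ replicate 2 (60.7). The score of the bipolar list rested on some of its genes, since its summed level was highest on HZ replicate 3 (120.6) and KO replicate 1 (83.2). Cone, RPE, microglia and connective tissue markers were not highest on replicate 2 in both groups. Rod markers deviated by -0.093 and -0.16, the lowest of each group but close to replicate 3 (-0.078 and -0.15). By summed level KO replicate 3 was the lowest KO array (1048.9, against 1058 on KO replicate 2). The 75th percentile that was subtracted was also highest on replicate 2, at 1024 units in HZ and 996 in KO. The part of these cells, or of the intensity of the arrays, in the order of the members was not tested.

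**Figure D5:**
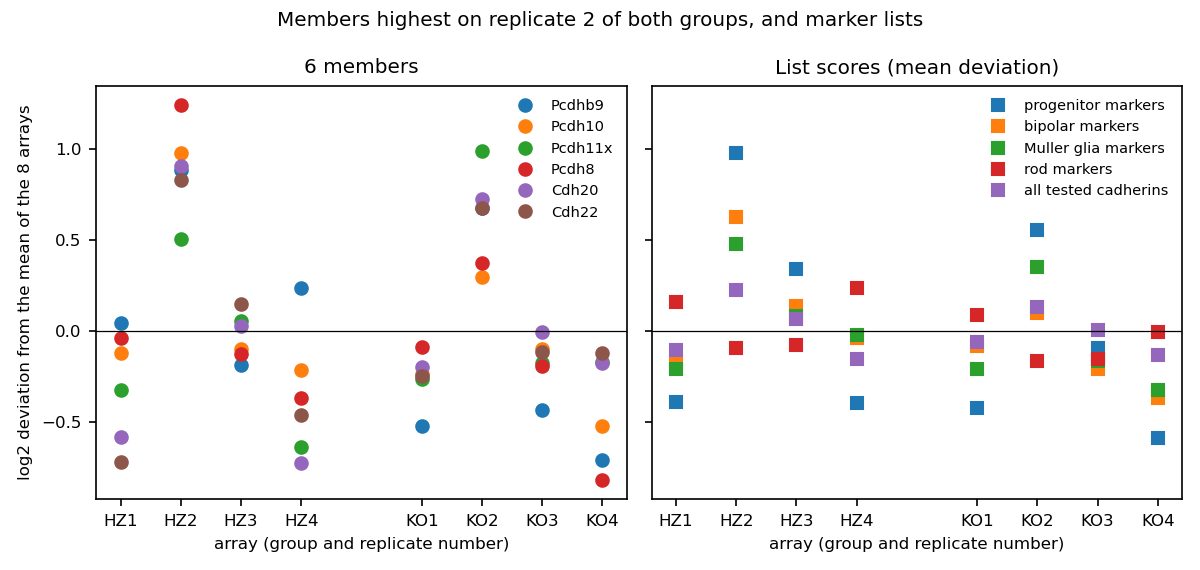
Log2 deviation from the mean of the 8 arrays (y axis) on each array (x axis) for 6 members (left) and for the mean over marker lists and over the 48 tested members (right). Replicate 2 is the highest array of both groups for the 6 members and for the progenitor markers. It is the lowest for the rod markers, by a small margin over replicate 3.

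The partners of cadherins were compared from lists of genes that are no members. None of the genes in these lists passed the looser thresholds with limma, which 1.04% of all tested probes did. As background for the counts below, 43.2% of tested genes with a symbol were lower and the rest higher. An unadjusted p under 0.05 was reached by 8.17% of all tested probes. Of 12 tested catenins, which tie cadherins to actin, 5 were lower and 7 higher (6 and 6 with quantile normalization). The differences were -0.32 for Ctnna2, -0.25 for Ctnnd2 and 0.18 for Ctnnb1 (beta-catenin), and 0 of the 12 had an unadjusted p under 0.05. Of 14 tested genes of the wider superfamily, 10 were lower and 4 higher. Celsr1, a planar polarity cadherin, differed by -0.60 (standard error 0.42) and Fat3 by -0.36 (standard error 0.35). Cdhr2 was the only one of the 14 with an unadjusted p under 0.05 (-0.21, limma adjusted p = 0.605). Cdhr1, the cadherin of the base of the photoreceptor outer segment, differed by 0.047 and was above background on all 8 arrays.

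Of 12 tested proteins that bind protocadherin tails, 3 were lower and 9 higher. The kinase Ptk2b differed by 0.44 (standard error 0.28) and Abi1 by 0.38 (standard error 0.24). For Abi1, HZ replicate 4 was 0.072, against 1.12 to 1.17 on the other HZ arrays. Abi2 differed by 0.27 (limma adjusted p = 0.611). Of 12 regulators of the clustered promoters, 4 were lower and 8 higher, but 6 and 6 with quantile normalization. Stag2, a subunit of cohesin, differed by 0.24 (limma adjusted p = 0.512) without overlap, as for 4.19% of all tested probes in this direction. Wiz differed by 0.22 (limma adjusted p = 0.601). Of 5 tested tip link partners, 3 were lower and 2 higher, with 0.33 for Myo7a, the myosin affected in Usher syndrome. Of 5 tested genes for proteases that cut cadherins, counting the subunits of gamma-secretase, 3 were lower and 2 higher. Psenen, a subunit of gamma-secretase, differed by 0.26 (limma adjusted p = 0.586). Of 3 tested repressors of Cdh1, all 3 were higher, with 0.18 for Zeb1 (limma adjusted p = 0.605) and 0.34 for Snai1. Over these lists, Abi2, Stag2, Wiz, Psenen and Zeb1 were the only genes higher in KO at an unadjusted p under 0.05 by limma. Cdhr2 was the only one lower.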

How the data were processed

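The 8 single-color arrays were grouped by their labels, 4 as HZ and 4 as KO. Each scanner table that the authors deposited holds the intensity of every spot, background-corrected by Agilent Feature Extraction 10.7.1.1, with marks for outliers, saturation and signal well above background. An additional deposited table, shifted to the 75 percentile with GeneSpring and centred for each probe, holds log2 values and served as an alternative. Intensities were brought to log2 and the 75th percentile of the 59305 spots of each array that were not controls was subtracted. Outlier spots were dropped, and repeated spots averaged.

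Probes entered the test if 4 or more arrays showed them well above background and each group had at least 3 values. The 34303 probes that did so were compared two-sided with limma 3.58.1 (lmFit, then eBayes) under R 4.3.3, after reading with the data.table package, version 1.17.8, and p-values were adjusted by Benjamini-Hochberg. The fit was tested on simulated data. Gene symbols came from RefSeq accessions, matched for 32994 of 56605 probes to GRCm38.p6, whose coordinates were used for promoters only. The number of arrays limits the precision.

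Named genes are members with an unadjusted p under 0.05, the 12 with the largest difference and members known from retina or junctions. The members, lists and thresholds were chosen with earlier results of these data known. Same-numbered arrays correlated in their deviations with r of 0.172 to 0.337, above 0.1 in 4 of 4 pairs, so the replicate number served as a block in an alternative. Arrays of different numbers had r of -0.337 to 0.117. Other alternatives were quantile normalization, normexp on the median signal with an offset of 50, a percentile taken over probes detected on all arrays, dropping or tightening the filter for dim probes, the t-test of the methods, eBayes with trend and robust options, averaging the probes of a gene, and leaving out each array. Plots were drawn with matplotlib 3.10.9.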

Additional observations from a re-analysis of the deposited data

Results flagged for a closer look

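In 3 of 44 groups of 4 arrays of the named members, a single array lay far from the other 3, where chance alone gives about 2.2. Pcdhb6 was -5.03 on HZ replicate 4, against -1.06 to -0.95 on the other HZ arrays. Pcdh10 was -0.77 on HZ replicate 2, against -1.96 to -1.85 on the others. Cdh8 was -3.52 on KO replicate 4, against -4.25 to -4.14 on the others. Without these arrays the differences were -0.012 for Pcdhb6, 0.0036 for Pcdh10 and -0.14 for Cdh8. On the array with the low Pcdhb6 value the scanner software called 458 spots non-uniform (2 to 25 on each of the rest), and the Pcdhb6 spot was not among them.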

How the results depend on the processing

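Of the 48 tested members, 0 passed a fold of 1.2 and an adjusted p under 0.05 in any of 18 settings, and their median difference lay between -0.065 and 0.019. Pcdh18 kept its direction in all 18, and the count of lower members at the looser thresholds was 0 with quantile normalization, normexp and no filter on dim probes and 0 to 1 with an array left out. Members with an unadjusted p under 0.05 were 1 to 3 lower and 0 to 3 higher with an array left out. They were 2 lower and 1 higher with the replicate block and with a percentile over probes above background on all arrays. With normexp, the methods' t-test and the mean of a gene's probes 1 was higher, and without a filter 0. The replicate block changed no other call of a member.

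Over all probes, the looser thresholds gave 279 lower and 78 higher, 178 lower with quantile normalization, 32 and 9 without a filter, 913 and 254 with the replicate block, and 0 to 1361 lower and 0 to 373 higher with an array left out. The lower share of these calls was 78.2%, 63.6% with quantile normalization, 54.0% without HZ replicate 4 and 100% (1 probe) without HZ replicate 1. The stricter thresholds gave 0, but 1 lower and 1 higher with quantile normalization, 3 and 1 with normexp, 2 and 1 with trend and robust eBayes and 2 higher with the methods' t-test. At an unadjusted p under 0.05 the block gave 2082 lower, and leaving out an array gave 891 to 2525 lower and 1030 to 2472 higher.

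Direction turned for some members, among them Pcdhb6, Cdh6 and Pcdh10. With quantile normalization Pcdh1 was 0.064 and Pcdh17 0.015. With normexp Cdh11 was 0.018, Cdh2 0.049, Cdh23 -0.0023, Cdh8 -0.052, Pcdh1 0.028 and Pcdh19 0.0036. Cdh8 was -0.0076 with the other percentile and -0.24 as the mean of its probes, and Cdh11 was 0.013 with the authors' values. With an array left out, Cdh11 ranged from -0.074 to 0.074, Cdh2 from -0.18 to 0.0070, Cdh6 from -0.077 to 0.68, Cdh8 from -0.14 to 0.14, Pcdh10 from -0.42 to 0.0036, Pcdh17 from -0.12 to 0.078, Pcdh19 from -0.11 to 0.013 and Pcdhb6 from -0.012 to 1.35. Except where a single array is named above, the cause was not tested. In settings chosen after seeing the data, replicate 2 was highest in both groups for 13 to 20 members and replicate 4 lowest for 12 to 17. Dim probes near background, as for Pcdh18, limit what the differences can show.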
